A study of Mus musculus with 8 samples.

Results

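A set of 6 genes that mark B lymphocytes was followed on 8 single-colour expression arrays of mouse olfactory mucosa, the part of the nose lined by smell-sensing neurons. The genes are Cd79a, Cd79b, Ms4a1, Cd22, Pou2af1 and Jchain. Every probe set whose platform symbol is 1 of these 6 names was taken, which gave 8 probe sets of 12488 in the table: 2 each for Ms4a1 and Pou2af1 and 1 for each of the others. All animals, controls included, had lost both olfactory bulbs, where the axons of these neurons end. The arrays form 4 groups of 2: C57BL/6 wild-type mice injected with carrier, Ccl3-/- mice injected with carrier, wild-type mice injected with CCL3, and Ccl3-/- mice injected with CCL3. CCL3, also called MIP-1a, is a chemokine that attracts leukocytes, and the title of the series names its effect on macrophage recruitment once the neurons' target is gone as the question. The labels give no age, sex, dose or time, and do not say whether an array holds RNA of 1 animal or of a pool, so the p-values rest on differences between arrays that may be purely technical.

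B cells recognise antigen through a surface immunoglobulin that cannot signal by itself. CD79A and CD79B form the pair that carries its signal into the cell, CD20 (encoded by Ms4a1) and CD22 are further surface proteins of the B lineage, and CD22 dampens the receptor's signal. POU2AF1 is a nuclear coactivator that works with octamer-binding factors at immunoglobulin promoters. The J chain joins IgA or IgM units into polymers, which are the form of antibody carried across mucosal epithelia, the nasal one among them, and is made mainly by antibody-secreting plasma cells. In whole tissue, fewer cells of a type and less RNA per cell cannot be told apart.

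The promoter windows of 3 of these genes are shown because Cd79a and Jchain are measured well enough to be tested and because Pou2af1 acts through the octamer. Each window runs from 250 bases before the start of the gene to 50 after it, 5′ to 3′ on the gene's strand, from RefSeq on GRCm38.p6: chr7:24897247-24897546 on the plus strand for Cd79a, chr9:51213440-51213739 on the plus strand for Pou2af1, and chr5:88527848-88528147 on the minus strand for Jchain. Of the 6 genes, 4 matched the table of windows. Capitals mark matches to the motifs described after the sequences.
Cd79a: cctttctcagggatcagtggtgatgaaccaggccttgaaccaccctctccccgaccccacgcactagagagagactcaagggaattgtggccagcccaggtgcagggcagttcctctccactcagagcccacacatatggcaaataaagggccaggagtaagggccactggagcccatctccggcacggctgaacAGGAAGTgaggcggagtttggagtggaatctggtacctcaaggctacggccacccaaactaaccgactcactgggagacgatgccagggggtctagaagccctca
Pou2af1: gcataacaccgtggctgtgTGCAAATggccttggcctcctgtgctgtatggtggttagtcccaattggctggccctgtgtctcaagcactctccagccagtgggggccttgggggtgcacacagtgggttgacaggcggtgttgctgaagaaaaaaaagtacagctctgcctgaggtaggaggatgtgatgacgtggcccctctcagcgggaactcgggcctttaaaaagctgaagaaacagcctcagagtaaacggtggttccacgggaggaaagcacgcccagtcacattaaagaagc
Jchain: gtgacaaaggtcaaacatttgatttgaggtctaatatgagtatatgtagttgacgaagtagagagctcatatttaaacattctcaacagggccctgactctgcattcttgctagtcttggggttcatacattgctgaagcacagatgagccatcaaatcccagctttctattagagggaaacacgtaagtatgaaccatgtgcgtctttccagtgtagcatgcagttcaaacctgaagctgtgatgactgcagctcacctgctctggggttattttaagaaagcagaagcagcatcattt

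Both strands were searched for the octamer ATGCAAAT, its shorter core TGCAAAT (which every octamer match contains), the ETS-type motif AGGAAGT and the EBF-type motif CCCNNGGG. The full octamer was in none of the 4 windows and in 1.74% of all 32851 windows. The core stood in the Pou2af1 window, 231 bases before the start, and in 4.02% of all windows. AGGAAGT stood in the Cd79a window, 55 bases before the start, and in 9.35% of all windows. CCCNNGGG stood in the Cd22 window, 48 bases before the start, and in 13.7% of all windows. No motif searched was in the Jchain window. These matches describe the letters in the windows and no binding was measured.

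The deposited values are intensities on a linear scale, already scaled by the authors, with a median per array of 581.4 to 660.3. Differences were fitted by limma on log2(intensity + 102.3), a scale that understates changes of dim probe sets, with all 4 groups sharing one estimate of the spread. The filter for testing was an intensity above 362.7 on 2 or more arrays, which 8150 probe sets met. No probe set of the array passed an adjusted p of 0.05 in any of the 6 comparisons below, so no gene is called changed. The first wild-type carrier array differed most from the rest, with a Gapdh 3' to 5' ratio of 2.59 against 0.755 to 1.31 and the greatest distance (0.521, root mean square on the log2 scale) from the mean of all arrays. Ccl3 itself separated the labelled genotypes without overlap, but it was higher on the arrays labelled Ccl3-/-. It had 727.3 to 812.2 there and 159.4 to 386.5 on the wild-type arrays. Whether this probe set lies in the deleted part is not given. It therefore does not check which arrays are the knockout, and every genotype direction rests on the labels.

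Most of the B cell probe sets were dim. Of the 8 probe sets, 3 passed the filter: Cd79a (102778_at), Ms4a1 (104173_at) and Jchain (102372_at). They exceeded 362.7 on 7, 8 and 4 of the 8 arrays. None of the 4 arrays for Jchain was from the carrier-injected Ccl3-/- group, so its passing and its being low in that group are linked. The other 5 probe sets were too dim to test. Cd22 and the dimmer probe set of Pou2af1 lay below 102.3, the 20th percentile of the table, on 7 and 8 of the 8 arrays. The plot of intensities by group shows all 8.

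**Figure D1:**
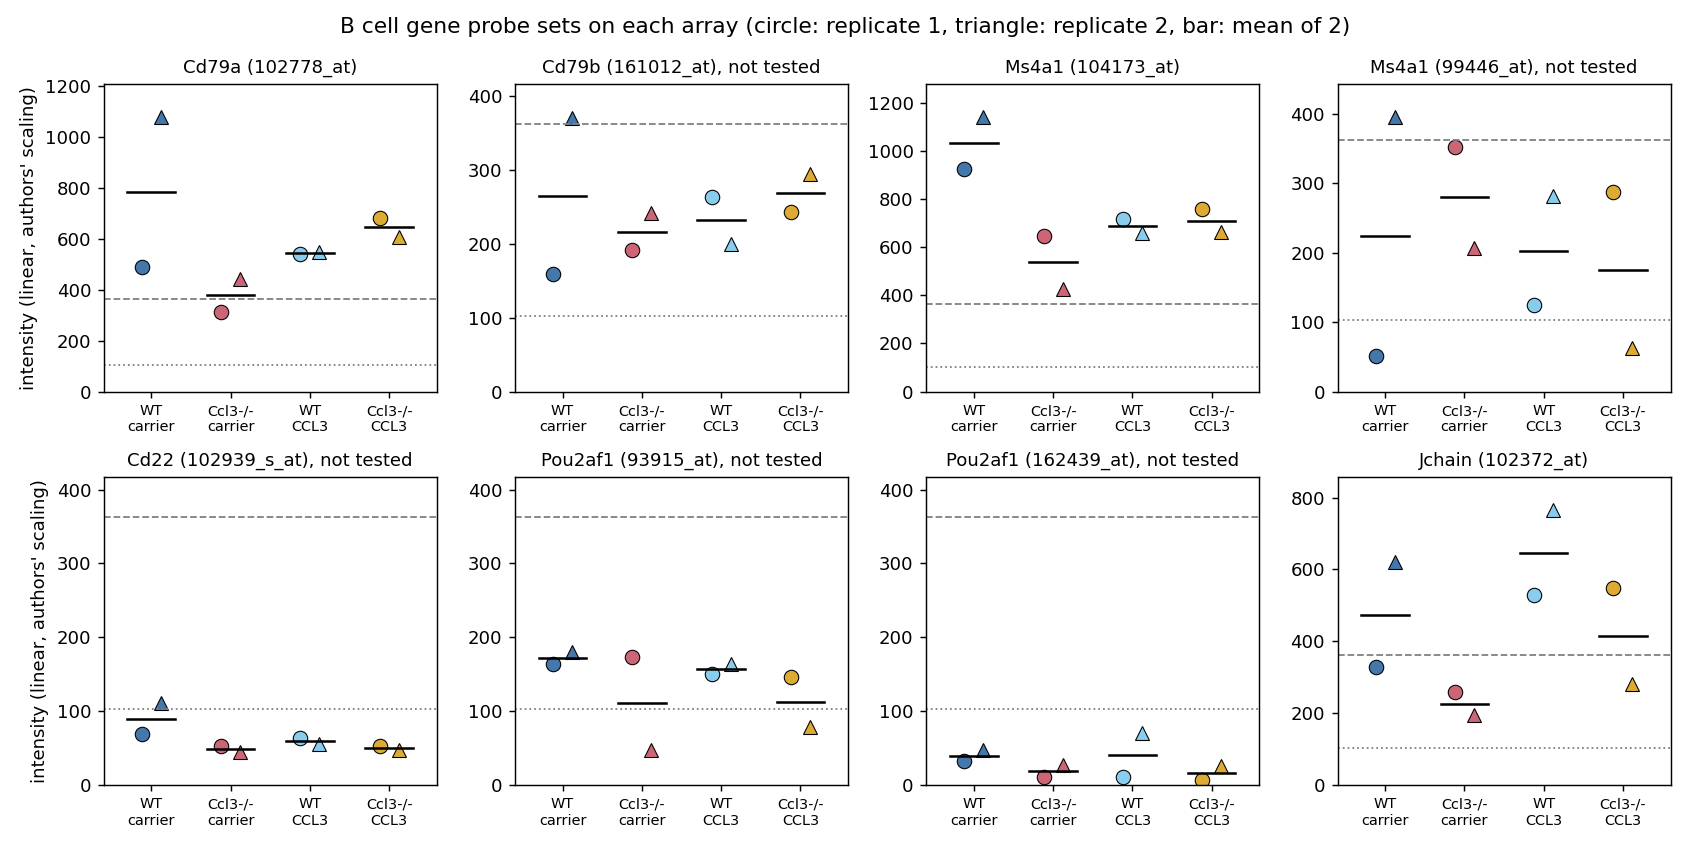
Intensity (linear, as scaled by the authors) of each B cell gene probe set on each of 8 arrays, by group; circles are replicate 1, triangles replicate 2 and bars the mean of 2. The dashed line is the filter value of 362.7 and the dotted line 102.3; the 3 tested probe sets (Cd79a, Ms4a1 104173_at, Jchain) have their lowest group mean in carrier-injected Ccl3-/- mice, and their axes differ in height.

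Among the receptor's signalling pair, Cd79a had intensities of 488.7 and 1078.3 on the wild-type carrier arrays, 313.6 and 442.5 on the Ccl3-/- carrier arrays, 538.4 and 546.8 on the wild-type CCL3 arrays, and 682.3 and 606.2 on the Ccl3-/- CCL3 arrays. The carrier-injected Ccl3-/- arrays were the lowest of the 8, and wild-type carrier replicate 2 was the highest, well above its partner. Its partner subunit Cd79b (161012_at) had 159.1 and 370.9, 191.1 and 241.6, 263.6 and 200.1, and 243.7 and 294.3 in the same order of groups. Cd79b was likewise highest on wild-type carrier replicate 2, but lowest on wild-type carrier replicate 1, and its groups overlapped in every comparison but CCL3 against carrier in Ccl3-/- mice, where the nearest values were 241.6 and 243.7.

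Among the other surface proteins, Ms4a1 (104173_at) had 923.9 and 1143.5 on the wild-type carrier arrays, 646.6 and 427.2 on the Ccl3-/- carrier arrays, 715.7 and 658.2 on the wild-type CCL3 arrays, and 759.5 and 662.5 on the Ccl3-/- CCL3 arrays. Both wild-type carrier arrays were above all others, both Ccl3-/- carrier arrays were below all others, and the CCL3 groups overlapped between them. The dimmer Ms4a1 probe set (99446_at) did not follow it: it had 51.8 and 395.7, 351.6 and 207.1, 124.3 and 281, and 287.3 and 62.7 in the same order, with all groups overlapping. Cd22, the inhibitory receptor, lay between 44.7 and 110.8, with 68.7 and 110.8 on the wild-type carrier arrays and 52.2 and 44.7 on the Ccl3-/- carrier arrays. These groups did not overlap, but 7 of the 8 values were below 102.3.

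The nuclear coactivator Pou2af1 was dim by both probe sets. The brighter (93915_at) had 164.2 and 179.2 on the wild-type carrier arrays, 173.7 and 46.7 on the Ccl3-/- carrier arrays, 149.9 and 163 on the wild-type CCL3 arrays, and 146.6 and 78.9 on the Ccl3-/- CCL3 arrays. In each Ccl3-/- group, replicate 1 lay near the wild-type values or just below them and replicate 2 well below. The other (162439_at) ranged from 6.1 to 70 and gives no usable order.

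Jchain, the plasma cell gene of the set, had 327 and 621.8 on the wild-type carrier arrays, 257.5 and 195.3 on the Ccl3-/- carrier arrays, 527.8 and 766.1 on the wild-type CCL3 arrays, and 549.2 and 280.4 on the Ccl3-/- CCL3 arrays. Its order differed from that of Cd79a and Ms4a1: the wild-type CCL3 group had the highest mean, and wild-type CCL3 replicate 2 the highest value. The 2 replicates of the Ccl3-/- CCL3 group lay far apart, so the group overlapped both wild-type groups. Over the 8 probe sets, wild-type carrier replicate 2 was the highest array for 6 and wild-type CCL3 replicate 2 for the other 2, while Ccl3-/- carrier replicate 2 was the lowest for 4.

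After carrier injection, the tested B cell genes had lower values in the Ccl3-/- group than in wild type, without passing the test. Ms4a1 averaged 1034 ± 155 in wild type and 537 ± 155 in Ccl3-/- (SD, n = 2 per group), a log2 difference of -0.84 ± 0.28 (SE) with an adjusted p of 0.377 in limma. Cd79a averaged 783.5 ± 417 and 378 ± 91.1, at -0.81 ± 0.36 (adjusted p = 0.437 in limma). Jchain averaged 474 ± 208 and 226 ± 44.0, at -0.77 ± 0.40 (adjusted p = 0.475 in limma). At an unadjusted p under 0.05, Ms4a1 and Cd79a were lower, as were 6.40% of all tested probe sets, and at the adjusted threshold 0 of the 3 were called, as of all (0%). The median difference of the 3 was -0.81, beside -0.03 over all tested probe sets, and it was -0.39 over all 8 B cell probe sets in a fit without the filter. In that fit the dimmer Ms4a1 probe set (99446_at) had the opposite sign, at 0.44 ± 0.59. The groups did not overlap, with Ccl3-/- lower, for 5 of all 8 B cell probe sets, against 25.5% of the 12422 probe sets on the array that are not controls, and no B cell probe set was higher without overlap, against 12.8%. The 5 include Cd22 and the dimmer Pou2af1 probe set, whose values lay mostly or wholly below 102.3.

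The size of this difference depended on single arrays of both groups. Without wild-type carrier replicate 1, Cd79a was at -1.31, Jchain at -1.15 and Ms4a1 at -0.98. Without its replicate 2, Cd79a was at -0.31, Jchain at -0.39 and Ms4a1 at -0.70. Cd79a and Jchain thus moved most with the wild-type arrays, whereas Ms4a1 moved most with the Ccl3-/- carrier arrays. Without Ccl3-/- carrier replicate 1, Ms4a1 was at -1.09, Jchain at -0.91 and Cd79a at -0.62. Without its replicate 2, Ms4a1 was at -0.59, Jchain at -0.63 and Cd79a at -1.01. None of the 3 passed in any of these 4 fits, although 110 probe sets of the array passed without wild-type carrier replicate 2.

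**Figure D2:**
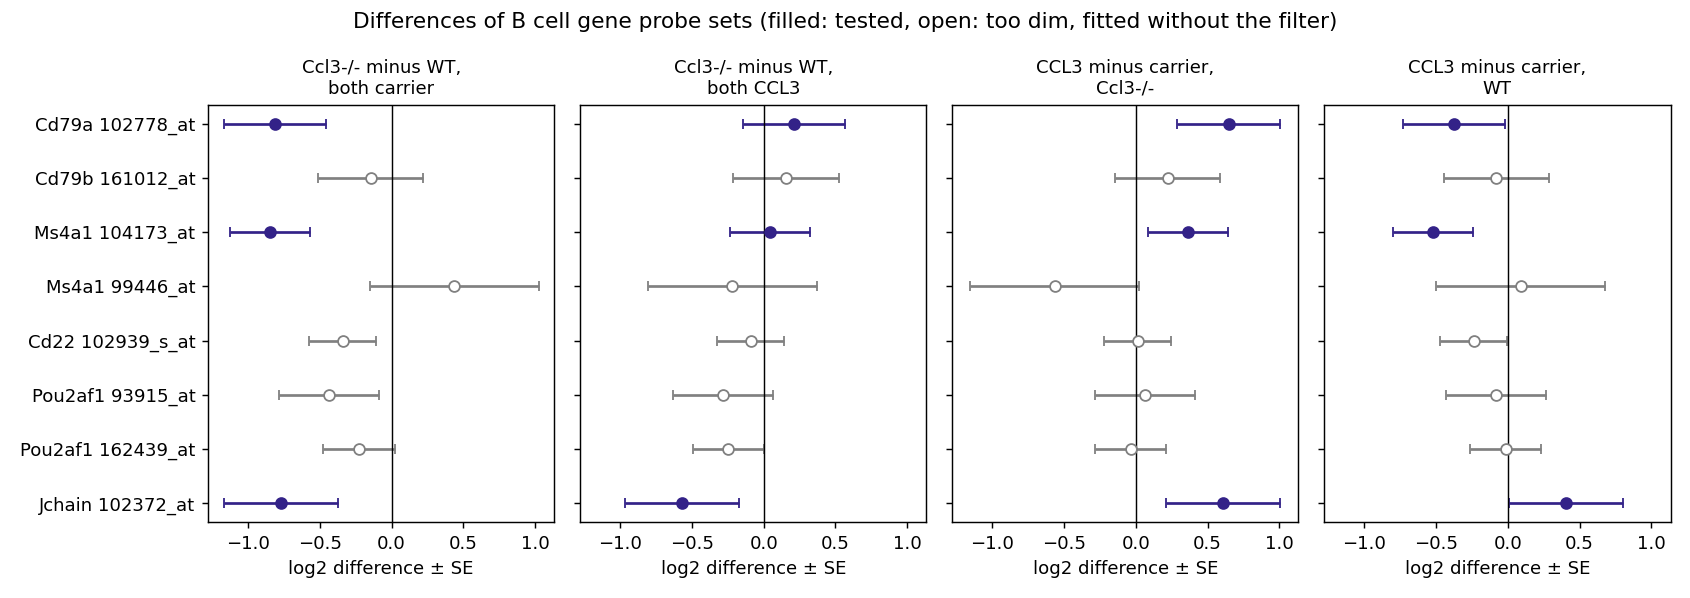
Log2 difference (log2(intensity + 102.3) scale) ± SE of each B cell gene probe set in 4 comparisons, with 2 arrays per group. Filled points are the 3 tested probe sets and open points those too dim to test, fitted without the filter; the tested ones lie from -0.84 to -0.77 for Ccl3-/- against wild type after carrier and from 0.37 to 0.65 for CCL3 against carrier in Ccl3-/-.

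After CCL3 injection, the genotypes lay closer for Ms4a1 and Cd79a. Ms4a1 averaged 687 ± 40.7 in wild type and 711 ± 68.6 in Ccl3-/- (SD, n = 2 per group), a log2 difference of 0.04 with a 95% interval from -0.58 to 0.66. Cd79a was at 0.21 ± 0.36 (SE), with 542.6 ± 5.94 and 644 ± 53.8, and Jchain at -0.57 ± 0.40, with 647 ± 169 and 415 ± 190. None of the 3 was called by limma (0% of all tested probe sets were), none was under an unadjusted p of 0.05 (1.48% of all were), and the adjusted p was above 0.99 for each. The median difference of the 3 was 0.04, beside 0.02 over all, and it was -0.15 over all 8 B cell probe sets in a fit without the filter. Groups did not overlap for Cd79a, which was higher on the Ccl3-/- arrays (16.7% of all probe sets were), or for Cd22 and the brighter Pou2af1 probe set, which were lower (13.6%). Cd22 and that Pou2af1 probe set were too dim to test. The Jchain value was -0.95 without Ccl3-/- CCL3 replicate 1 and -0.18 without replicate 2, and -0.34 without wild-type CCL3 replicate 2. Without Ccl3-/- CCL3 replicate 1 or wild-type CCL3 replicate 2, Ms4a1 was at -0.04 and -0.01.

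In Ccl3-/- mice, the tested B cell genes were higher after CCL3 than after carrier, again without passing. Cd79a was at 0.65 ± 0.36 (SE, n = 2 per group, adjusted p = 0.940 in limma), Jchain at 0.61 ± 0.40 (adjusted p = 0.951) and Ms4a1 at 0.37 ± 0.28 (adjusted p = 0.967). The median of the 3 was 0.61, beside 0.03 over all tested probe sets. It was 0.14 over all 8 B cell probe sets in a fit without the filter, and 0.28 for the 3 without Ccl3-/- CCL3 replicate 1. None was called (0% of all) or under an unadjusted p of 0.05 (4.90% of all). The groups did not overlap, with CCL3 higher, for 4 of the 8 probe sets (Cd79a, Cd79b, Ms4a1 104173_at and Jchain), against 20.5% of all. The dimmer Ms4a1 probe set (99446_at) had the opposite sign, at -0.56 ± 0.59 in the fit without the filter. This comparison shares the Ccl3-/- carrier arrays with the genotype comparison after carrier, so their opposite signs are not separate measurements. Jchain was at 0.23 without Ccl3-/- CCL3 replicate 1 and at 0.99 without replicate 2. Ms4a1 was at 0.12 without Ccl3-/- carrier replicate 2 and at 0.62 without replicate 1.

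In wild-type mice, CCL3 against carrier gave different signs for the B cell genes. Ms4a1 was at -0.52 ± 0.28 and Cd79a at -0.37 ± 0.36, while Jchain was at 0.41 ± 0.40 (SE, n = 2 per group, adjusted p from 0.911 to 0.916 in limma). None was called (0% of all) or under an unadjusted p of 0.05 (4.29% of all). Groups did not overlap, with CCL3 lower, for 3 of the 8 (Ms4a1 104173_at, Cd22 and the brighter Pou2af1 probe set), against 22.8% of all. Of these only Ms4a1 was bright enough to test. Without wild-type carrier replicate 2, Cd79a turned to 0.13 and Jchain was at 0.78. Without wild-type carrier replicate 1, Cd79a was at -0.87 and Jchain at 0.03, and without wild-type CCL3 replicate 2 Jchain was at 0.18 and without its replicate 1 at 0.64.

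The difference between the genotypes in their CCL3 difference was tested as an interaction. It was 1.02 ± 0.50 for Cd79a, 0.89 ± 0.39 for Ms4a1 and 0.20 ± 0.56 for Jchain (SE, n = 2 per group, adjusted p of 0.908, 0.908 and 0.962 in limma). None was called (0% of all), and Ms4a1 was higher at an unadjusted p under 0.05, as were 3.19% of all. Without wild-type carrier replicate 2 the interaction of Cd79a was 0.52, and that of Jchain turned to -0.18. Without Ccl3-/- CCL3 replicate 1 or wild-type CCL3 replicate 1, Jchain was at -0.18 and -0.03. It was 0.06 without Ccl3-/- carrier replicate 2, and 0.34 to 0.59 without any of the other 4 arrays.

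CCL3-injected Ccl3-/- mice were also set against carrier-injected wild type, to ask how near the injection brought the knockout to the carrier-injected wild-type level. Ms4a1 was at -0.48 ± 0.28, Cd79a at -0.16 ± 0.36 with a 95% interval from -0.96 to 0.63, and Jchain at -0.16 ± 0.40 with an interval from -1.04 to 0.73 (SE, n = 2 per group). None was called by limma (0% of all) or under an unadjusted p of 0.05 (5.74% of all), and these intervals include both equality and differences of the size seen after carrier. Ms4a1 remained without overlap below the wild-type carrier arrays, as did Cd22 and both Pou2af1 probe sets, 4 of 8 against 23.7% of all. Of these only Ms4a1 was bright enough to test, and the dimmer Pou2af1 probe set gives no usable order. Without wild-type carrier replicate 2, Cd79a was at 0.34 and Jchain at 0.22. Without wild-type carrier replicate 1 they were at -0.66 and -0.54, Jchain was at -0.54 and 0.22 without Ccl3-/- CCL3 replicates 1 and 2, and Cd79a was at -0.09 without replicate 2.

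Other genes of the B lineage were less uniform than the 3 tested ones. The following lists were read with the brightest probe set of each gene, and after carrier no gene of any of them passed in limma. Over all tested probe sets the median after carrier was -0.03, with quartiles of -0.33 and 0.30. At an unadjusted p under 0.05 in limma, 6.40% of them were lower. Ighg3, Prkcb, Btk, Spib, Pax5, Thy1, H2-Ab1 and H2-Oa were named for a small unadjusted p in the interaction. The interaction contains the difference after carrier with its sign reversed, so these genes were likely to differ after carrier. Of 27 immunoglobulin genes on the array 15 were tested, and 12 were lower on the arrays labelled Ccl3-/- (median -0.44, 1 at an unadjusted p under 0.05). Many immunoglobulin probe sets share sequence, so their values are not separate. Igha, the heavy chain of IgA, which the J chain joins into dimers, had 650.1 and 2597.6 on the wild-type carrier arrays, 696 and 329.1 on the Ccl3-/- carrier arrays, 1315.2 and 7377.1 on the wild-type CCL3 arrays, and 1556 and 1133.1 on the Ccl3-/- CCL3 arrays. By this brightest probe set, its highest and second highest arrays, wild-type CCL3 replicate 2 and wild-type carrier replicate 2, were also the highest and second highest for Jchain. The dimmer Igha probe sets had the order of these arrays swapped. They had 391.4 and 97.8 on wild-type carrier replicate 2, and 220.3 and 68.3 on wild-type CCL3 replicate 2. The difference of Igha after carrier, by its brightest probe set, was -1.28 ± 0.75 (SE). Ighm, the heavy chain of IgM, was at -0.06 ± 0.47 by its brightest probe set, and Ighg3 at -1.03 ± 0.43.

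Of 18 genes of receptor signalling on the array 15 were tested, and 12 were lower after carrier (median -0.26). Of these 1 was at an unadjusted p under 0.05 in limma, near the share of 6.40% over all tested probe sets. Prkcb, a kinase downstream of the B cell receptor, was at -0.68 ± 0.25 (SE), Btk, a kinase needed for B cell development, at -0.72 ± 0.44, and Cd81, a partner of the coreceptor that many other cells also carry, at -0.31 ± 0.25. Blnk and Grb2, with Cd81 the brightest of the list, were at 0.02 ± 0.29 and -0.27 ± 0.25. Of 11 tested B lineage transcription factors, 8 were lower (median -0.19, 1 at an unadjusted p under 0.05). Spib, an ETS factor of B cells and plasmacytoid dendritic cells, was at -1.23 ± 0.38, and Pax5, the factor that keeps B cell identity, at -0.97 ± 0.60. The brightest of these factors, Id3, Bcl6 and Myb, were at -0.19 ± 0.31, -0.16 ± 0.28 and 0.11 ± 0.33. Spib had another order of groups, with 1073.5 and 1307.6 on the wild-type carrier arrays, 669 and 287.2 on the Ccl3-/- carrier arrays, 306.3 and 239.2 on the wild-type CCL3 arrays, and 574.8 and 339.1 on the Ccl3-/- CCL3 arrays. It was thus high in a single group.

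The remaining B lineage lists differed among themselves after carrier. The early B precursor median was close to that of the transcription factors, and the other medians lay nearer to 0. Of 6 tested surface, homing and survival genes 3 were lower (median 0.03), of 5 plasma cell genes 3 (median -0.05) and of 9 early B precursor genes 6 (median -0.21). Cd24a, which epithelial and neuronal precursors carry as well as B cells, was at 0.68 ± 0.26 (SE). Xbp1, a factor of secretory cells, was at 0.18 ± 0.32, and Pigr, the epithelial receptor that carries polymeric IgA, at 0.63 ± 0.34. For CCL3 against carrier in Ccl3-/- mice, 11 of 15 signalling genes and 10 of 15 immunoglobulin genes were higher (medians 0.23 and 0.12), again with none passing. The other B lineage lists were split, with 6 of 11 transcription factors higher (median 0.05), 3 of 6 surface, homing and survival genes (0.01), 3 of 5 plasma cell genes (0.01) and 4 of 9 early B precursor genes (-0.01), beside 0.03 over all tested probe sets. In that comparison Prkcb was at 0.45 ± 0.25, Igha at 1.29 ± 0.75 and Ighg3 at 0.70 ± 0.43. Other genes named above ran the other way, among them Pigr at -1.11 ± 0.34, Xbp1 at -0.70 ± 0.32, Cd24a at -0.22 ± 0.26 and Blnk at -0.14 ± 0.29.

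Markers of other cell types also differed in level between the groups. All 6 tested genes of the 20 T and NK cell markers on the array were lower after carrier on the arrays labelled Ccl3-/- (median -0.34), with Thy1 at -0.99 ± 0.44 (SE). The brightest of them, Cd4, Cd7 and Zap70, were at -0.28 ± 0.36, -0.23 ± 0.37 and -0.13 ± 0.39, with overlapping groups. Of 9 MHC class II genes 6 were lower (median -0.33), among them H2-Ab1 at -1.41 ± 0.24 and H2-Eb1 at -0.96 ± 0.25, which B cells share with dendritic cells and macrophages. The brightest genes of the list, Ctss and Cd74, were at 0.29 ± 0.29 and -0.44 ± 0.41, and H2-Oa was at 0.48 ± 0.47. This list had 3 lower genes without wild-type carrier replicate 2. The summed intensity of those 20 T and NK markers was 4327 and 5561 on the wild-type carrier arrays, 3380 and 3577 on the Ccl3-/- carrier arrays, 3863 and 4070 on the wild-type CCL3 arrays and 4470 and 3124 on the Ccl3-/- CCL3 arrays. Neutrophil markers ran the other way, with 8 of 10 tested genes higher after carrier (median 0.54), and their summed intensity over 13 genes was 101512 and 90629 against 125164 and 177878. Macrophage markers were higher for 7 of 11 tested genes (median 0.32). Their mean log2 value, minus its mean over the 8 arrays, was -0.30 and 0.11 on wild-type carrier replicates 1 and 2. It was 0.02 and 0.03 on the Ccl3-/- carrier arrays, so these were higher than wild-type carrier replicate 1 only. Dendritic cell and red blood cell markers were each lower for 4 of 6 (medians -0.17 and -0.21). Red blood cell markers differed more for CCL3 against carrier in Ccl3-/- mice, where all 6 were higher (median 1.11, 5 at an unadjusted p under 0.05 in limma). Over all tested probe sets 4.90% were under that p in either direction. Skeletal muscle markers were higher for both tested genes after carrier (median 0.14), bone markers were split 2 to 2 (median -0.21), and so were the olfactory tissue markers that check the labelled tissue (median 0.20). The summed intensity of the olfactory tissue markers over 6 genes was 16458 to 37264. Both ends came from the Ccl3-/- carrier arrays, with 37264 on replicate 1 and 16458 on replicate 2. No marker was listed at 0. The part of these other cells, and of the RNA quality of wild-type carrier replicate 1, in the B cell values was not tested.

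**Figure D3:**
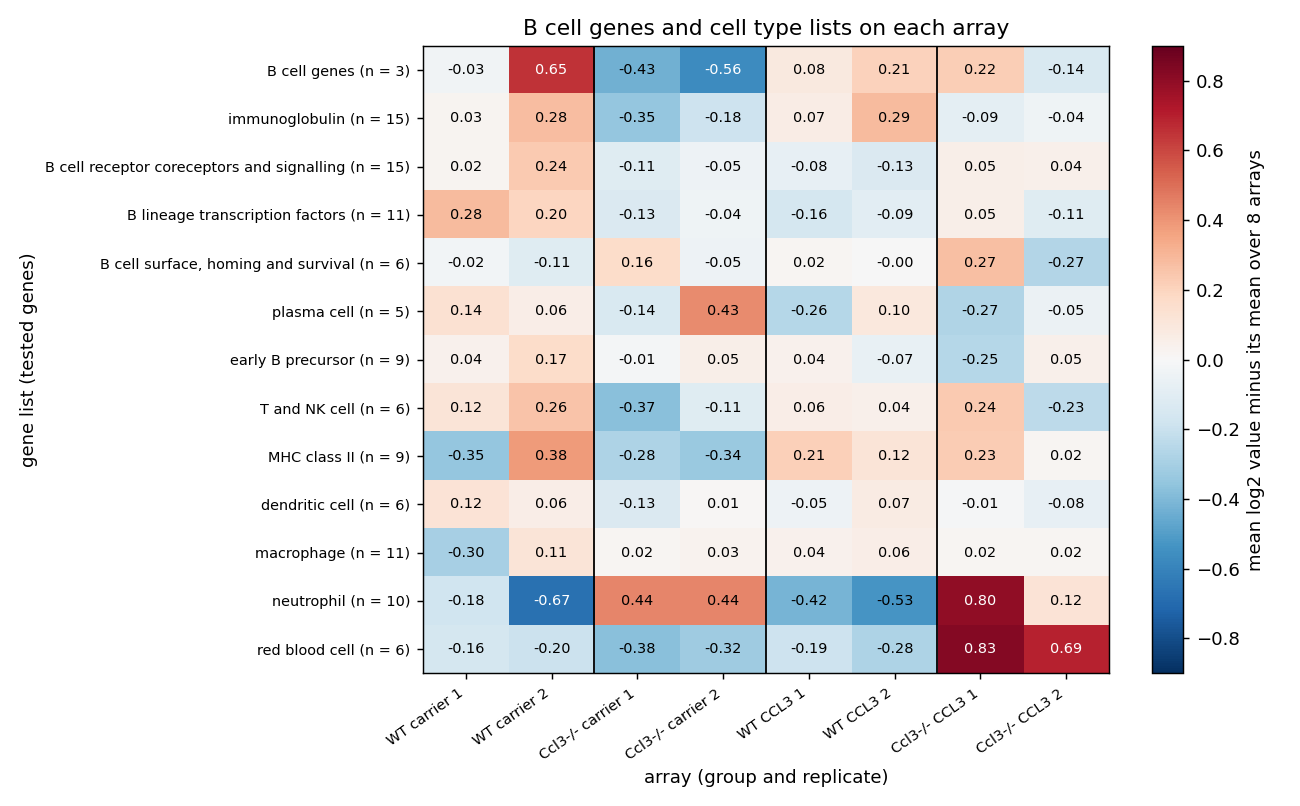
Mean log2(intensity + 102.3) of the tested genes of each list minus its mean over the 8 arrays, with the number of genes in brackets; columns are arrays and rows are lists. The B cell genes are highest on wild-type carrier replicate 2 (0.65) and lowest on the Ccl3-/- carrier arrays (-0.43 and -0.56).

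Over the 8 arrays, the 5 named probe sets most like the mean of the 3 tested B cell genes, out of 7354 candidates, were those of Irf8, Trbv1, Pigs, Agpat5 and Pelo. Their Pearson r over 8 arrays was 0.96 to 0.97, given as a description over arrays that share their groups and processing. Irf8 is a transcription factor of B cells, macrophages and dendritic cells, and Trbv1 is a segment of the T cell receptor beta chain. Pigs, Agpat5 and Pelo, which were as alike, are on none of the cell type lists read here. Irf8 had 675.6 and 839.2 on the wild-type carrier arrays and 554.2 and 489.3 on the Ccl3-/- carrier arrays. Trbv1 had 783.8 and 1162.4, and 467.3 and 325, on the same arrays, and the CCL3 arrays of both lay between these groups or overlapped them.

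**Figure D4:**
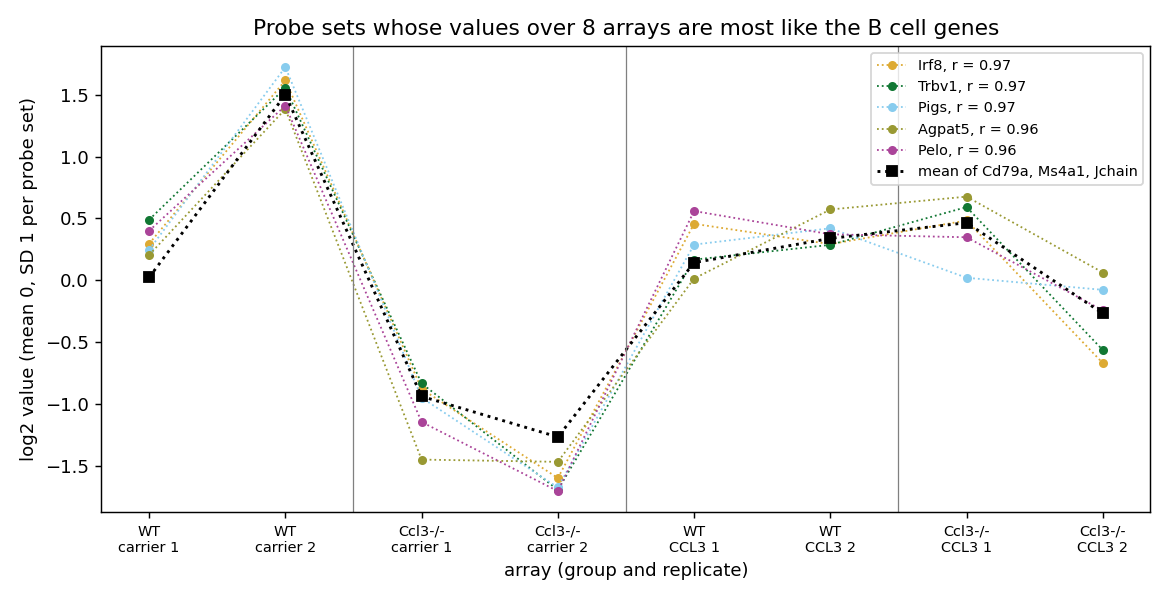
Log2(intensity + 102.3), set to mean 0 and SD 1 for each probe set, on each of 8 arrays for the mean of Cd79a, Ms4a1 and Jchain (black squares) and the 5 probe sets with the highest Pearson r to it. Dotted lines only join points of one probe set; all 6 are highest on wild-type carrier replicate 2 and lowest on the Ccl3-/- carrier arrays.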

How the data were processed

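Total RNA of 8 olfactory mucosa samples was measured on single-colour arrays, grouped by sample title. In the deposited table the authors' values are intensity on a linear scale, 1 per probe set and array; which software scaled them is not stated in these sources. Means trimmed by 2% at each end differed by 0.00834% of their mean, so values were not normalized again. Of 12488 probe sets, 10855 had 1 gene symbol, 396 several and 1237 none. The control probe sets were left out of tests. limma 3.58.1 (R 4.3.3) was fitted with an intensity trend to log2(value + 102.3), the 20th percentile of the table, over 8150 probe sets with at least 2 arrays above the 40th percentile (362.7), with Benjamini-Hochberg adjustment over all of them. The 4 groups left 4 residual degrees of freedom, and the number of arrays limits the precision. Intervals are 95% intervals from that fit. The members and lists were chosen with earlier results of these data known. Named from each list were the 3 brightest genes and the 3 with the smallest unadjusted p for the interaction, the comparison whose median over the tested B cell genes lay farthest from 0; not all are given here. The methods were tested on simulated data. Alternatives were other pseudocounts, filters and normalizations, no intensity trend, a replicate block, only the groups compared, and each array left out, which assumes that the lone array varies like the other groups. Figures were drawn with matplotlib 3.10.9.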

Additional observations from a re-analysis of the deposited data

Results flagged for a closer look

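For Cd79a, both arrays labelled Ccl3-/- were below both wild-type arrays after carrier and above both after CCL3, so the genotype difference ran in opposite directions; the test of that difference, the interaction, was 1.02 with an adjusted p of 0.908 in limma. For Ms4a1 (104173_at), both CCL3 arrays were above both carrier arrays in Ccl3-/- mice and below them in wild type. Its interaction was 0.89 with an adjusted p of 0.908 in limma. Neither interaction passed. Over the array, 25.5% of all probe sets were lower without overlap in Ccl3-/- after carrier, and 16.7% were higher after CCL3. For CCL3 against carrier, 20.5% were higher without overlap in Ccl3-/- mice and 22.8% lower in wild type. The share of probe sets with both directions at once was not counted. Whether such a pattern is unusual for these genes was therefore not tested.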

How the results depend on the processing

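No B cell probe set passed in any of the 6 comparisons under any alternative that kept all arrays and tested them. Of 285 recomputed single differences, 276 kept their direction, but many of them could not change. Removing the filter or the intensity trend, adding the replicate block or fitting only the groups compared leaves each difference as it was. So does leaving out an array outside the comparison. The count of 276 is therefore no measure of robustness. With no filter, which brings in the 5 dim probe sets, the B cell median was -0.39 for genotype after carrier, 0.14 for CCL3 in Ccl3-/-, -0.081 for CCL3 in wild type and 0.23 for the interaction. Leaving out 1 array at a time, the B cell median ran from -1.15 to -0.39 for genotype after carrier, 0.28 to 0.72 for CCL3 in Ccl3-/-, -0.66 to 0.13 for CCL3 in wild type, 0.52 to 1.03 for the interaction and -0.62 to 0.22 for CCL3-injected Ccl3-/- against carrier-injected wild type. The same fits turned the sign of Ms4a1 for genotype after CCL3 (-0.044 and -0.011 in the fits that turned it), Cd79a for CCL3 in wild type (-0.87 to 0.13), Jchain for the interaction (-0.18 to 0.59), and Jchain (-0.54 to 0.22) and Cd79a (-0.66 to 0.34) for CCL3-injected Ccl3-/- against carrier-injected wild type. Over the whole array, 0 to 110 probe sets passed for genotype after carrier, 0 to 1 for genotype after CCL3 and for CCL3 in Ccl3-/-, 0 to 73 for CCL3 in wild type and 0 to 131 for the last comparison; the counts of 110, 73 and 131 came without wild-type carrier replicate 2, and the counts of 1 without a Ccl3-/- carrier array; the cause was not tested. With only the groups compared, 1 probe set passed for genotype after CCL3. The replicate numbers did not pair the arrays (correlations of same-numbered deviations from -0.16 to 0.18 over 6 pairs of groups); with the replicate block 1 probe set passed for genotype after carrier, and no B cell call changed. The fit with only the groups compared cannot be made for the interaction. With the filter at the 60th percentile, no B cell probe set was tested.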
